A study of Rattus norvegicus with 16 samples.

Results

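The neurotrophin genes and their receptors Bdnf, Ntf3, Ntrk2, Ntrk3 and Ngfr were followed in rat dentate gyrus after passive avoidance learning. Members were every probe set that the platform annotation assigns to 1 of these 5 symbols, 15 probe sets of 8740 in all (4736 genes named): 7 for Bdnf and 2 each for Ntf3, Ntrk2, Ntrk3 and Ngfr. Total RNA was hybridised to 16 Affymetrix RGU34A arrays, a single-colour rat oligonucleotide array. There were 3 naive arrays, 2 each at 0 h, 2 h and 3 h, 3 at 6 h, and 2 each at 12 h and 24 h. Passive avoidance is a task in which an animal learns to withhold a response that brought a foot shock. Each label, the naive ones included, calls the animals trained in this task; naive is read here as the untrained group, the 6 hour groups are called trained, and the event from which the hours count is not stated. The labels give no strain, sex, age, drug or genotype for any group. They do not say whether an array held 1 animal or a pool, or that replicates came from different rats, so the p-values reflect the spread of these arrays, part or all of which can be technical.

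Neurotrophins are secreted growth factors of neurons, made as longer precursors that proteases cleave to the mature form. Bdnf encodes brain-derived neurotrophic factor, whose transcription in granule cells of the dentate gyrus follows neuronal activity and which is released at mossy fibre terminals; Ntf3 encodes neurotrophin-3, also expressed by granule cells. Ntrk2 encodes TrkB, the receptor tyrosine kinase of BDNF, Ntrk3 encodes TrkC, that of neurotrophin-3, and both genes also give rise to truncated receptors without the kinase. Ngfr encodes p75NTR, which binds all neurotrophins and, with sortilin, their precursors; in the adult forebrain it is best known from cholinergic neurons of the basal forebrain, whose fibres reach the dentate gyrus.

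Values are intensities after scaling every array to a common 2% trimmed mean. The tests used log2 intensity, with everything below 4.86 (the 20th percentile of all arrays together) raised to that lowest level. Testing required a value over 16.3 (the 40th percentile) on 2 or more arrays; 6220 probe sets passed, 13 of the 15 members among them. Levels of different probe sets cannot be compared with each other, so each is described only across arrays. Before scaling, the trimmed mean of the arrays lay between 33.3 and 170, and after it the log2 profiles of any 2 arrays correlated at r = 0.908 to 0.973 across probe sets. The 3'/5' ratio of the beta-actin control probe sets was 1.51 to 2.80 on the trained arrays and 1.49 to 1.70 on the naive arrays. Of 9 listed granule cell markers 4 were measured: Calb1 (calbindin, 277 to 479), Pdyn (prodynorphin, 233 to 440) and Penk (proenkephalin, 66.9 to 129) were above the filter on all 16 arrays, whereas Tdo2 was at the lowest level on 14.

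None of the 13 tested member probe sets passed an adjusted p of 0.05 in any comparison (limma, Benjamini-Hochberg adjustment over all 6220 probe sets). That count was 0 in the F test over the 7 groups, in the F test over the 6 trained times, for the mean of the trained groups against naive and for each hour against naive. The share of all tested probe sets called was 0% in each of these comparisons except 2 h against naive, where 1 probe set, not a member, was called (0.0161%). At an unadjusted p under 0.05, 1 member was counted at each of 2 h (7.67% of all probe sets), 6 h (9.41%), 12 h (10.1%) and 24 h (4.44%) and in the F test over the trained times (10.8%). None was counted at 0 h (5%), at 3 h (4.31%), for trained against naive (5.35%) or in the F test over the 7 groups (10.3%). The smallest adjusted p of a member was 0.425, in the F test over the trained times.

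For no member did the trained groups together differ from naive beyond the spread of the arrays. Of the 13 probe sets, 8 were higher and 5 lower in the trained mean, with a median log2 difference of 0.20, against -0.01 for all tested probe sets, of which 47.6% were higher. The 95% intervals of all 13 put the trained level at most 1.89-fold above the naive level and at the least 0.463 of it, the 2 bounds of Bdnf X67108_at and S71196mRNA_s_at. No member had trained arrays that all lay outside the range of the naive arrays; among all probe sets that held for 0.0643% on the higher side and 0.193% on the lower side. All hour comparisons share the same 3 naive arrays, so a naive array that is high or low moves all of them together.

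**Figure D1:**
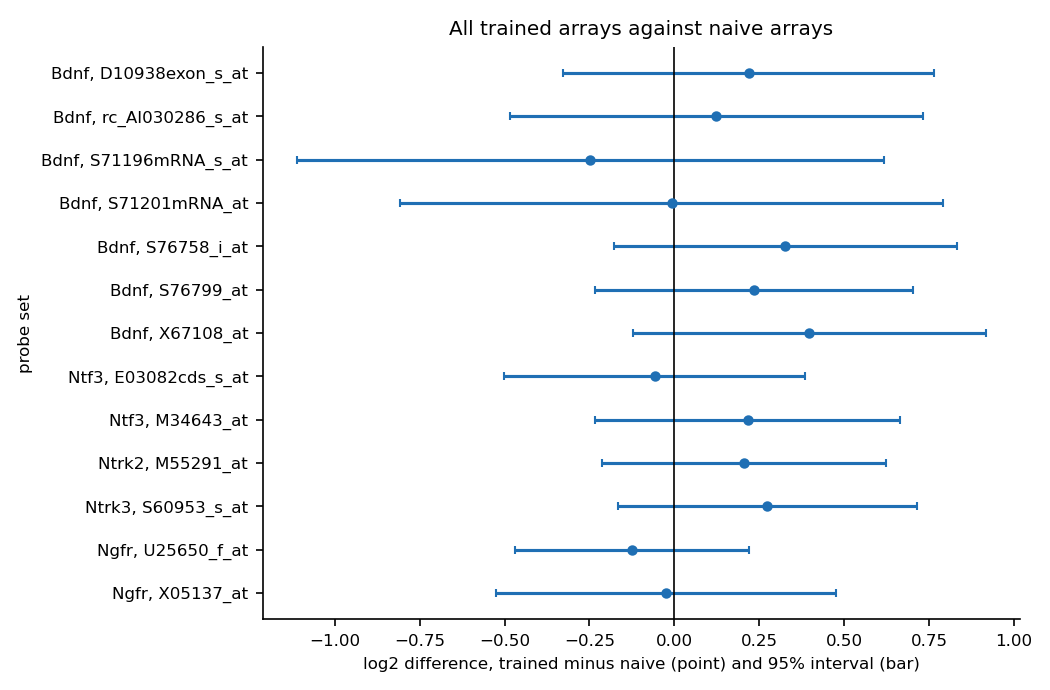
Log2 difference of the trained mean from naive for the 13 tested probe sets, as points with 95% intervals, the Bdnf probe sets first. Every interval includes 0, and the highest point is Bdnf X67108_at at 0.40.

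Bdnf was read by 7 probe sets, all of them tested. The first, D10938exon_s_at, gave 77.2, 86.4 and 43.1 on the naive arrays, 99.1 and 68.5 at 0 h, 74.1 and 99.6 at 2 h, 82.8 and 69.6 at 3 h, 75.9, 42.5 and 109 at 6 h, 65.0 and 48.8 at 12 h, and 99.6 and 91.9 at 24 h. Both the lowest and the highest array of the 16 were in the 6 h group, a 2.57-fold spread within which neighbouring groups in the order of levels (24 h, 2 h, 0 h, 3 h, 6 h, naive, 12 h) all overlapped. The 24 h arrays lay above all naive arrays; the log2 difference was 0.54 at 24 h and 0.22 (SE 0.26) for the trained mean. Without naive replicate 3, the low naive array, these were 0.23 and -0.089. Because this is bulk tissue, more cells that express a gene and more RNA per cell cannot be told apart for any of these values.

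Bdnf S76758_i_at had 42.7 and 47.9 at 2 h, against 25.6, 30.8 and 20.9 on the naive arrays. Both 2 h arrays lay above every naive array and above the 24 h arrays (33.2 and 31.2), the next group in level. The log2 difference at 2 h was 0.83 (SE 0.34, 95% interval 0.11 to 1.55), a 1.78-fold higher level, with an adjusted p = 0.6 (limma), so it did not pass. With log2 of Ttr, the choroid plexus gene for transthyretin, as a covariate it was 1.26. Log2 Ttr was 10.7 to 11.9 on the naive arrays, but 6.08 and 8.97 at 2 h, 6.95 and 7.75 at 12 h and 6.13 and 6.15 at 24 h. At these hours the covariate cannot be separated well from the groups, so values fitted with it are not read as larger effects. On the other arrays Bdnf S76758_i_at read 31.6 and 22.6 at 0 h, 30.9 and 26.0 at 3 h, 44.2, 22.5 and 32.8 at 6 h, and 37.4 and 24.1 at 12 h. Each of these 4 groups overlapped the naive range, and the 6 h arrays ran from within it to above the lower 2 h array. Of 7 genes listed for pyramidal cells, 3 were measured (Nrgn, Grik4 and Nr3c2), and whether they mark those cells in this tissue was not tested. All 3 were above naive at 2 h, but also at 6 h, 12 h and 24 h. Their summed levels at 2 h were 2209 to 2219 against 1736 to 1923 on the naive arrays. Nrgn made up most of this sum, at 1298 to 3075 over all arrays, against 73.4 to 161 for Grik4 and 62.8 to 133 for Nr3c2. In the sums of other markers, too, the probe sets with the highest readings weigh most. Of 7 astrocyte markers 5 were above naive at 2 h and 2 below (median log2 difference 0.33). Of 6 oligodendrocyte markers 5 were below and 1 above (-0.49). The part of any of these genes in the Bdnf value was not tested.

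Bdnf X67108_at had 22.2 and 35.2 at 2 h, against 12.2, 21.9 and 20.3 on the naive arrays. All 13 trained arrays of this probe set lay above the mean log2 level of the naive arrays, and the groups from the highest level down were 2 h, 24 h, 6 h, 12 h, 3 h, 0 h and naive, the same order as for S76758_i_at. Both arrays at 2 h and at 24 h lay above every naive array, but neighbours in this order all overlapped: 0 h read 23.1 and 18.9, 3 h 21.1 and 21.6, 6 h 23.5, 20.6 and 24.3, 12 h 21.0 and 23.0, and 24 h 28.0 and 22.0. The trained mean was 0.40 higher on the log2 scale (SE 0.25, 95% interval -0.12 to 0.92), the highest among the members. It was 0.13 without naive replicate 1. With log2 Ttr as a covariate it was 0.83, with a wider SE of 0.39. The 2 h difference of 0.67 (limma, adjusted p = 0.665) became 0.33 without 2 h replicate 2 and 1.00 without 2 h replicate 1.

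The remaining Bdnf probe sets did not share 1 time course. S76799_at was highest at 6 h, with 74.7, 56.5 and 42.9 against 35.7, 43.3 and 42.6 on the naive arrays, and at 24 h, with 61.6 and 44.7; its 0 h arrays (45.3 and 33.1) reached below the naive range. The probe set rc_AI030286_s_at was instead highest at 0 h, where 97.2 and 82.2 lay above the naive 63.8, 46.6 and 59.7 (log2 difference 0.67), and lowest at 3 h, with 61.2 and 34.7. S71201mRNA_at had 22.0 and 21.1 at 2 h against 15.0, 14.3 and 13.4 on the naive arrays, above the filter on 5 of 16 arrays. S71196mRNA_s_at was above it on 4 arrays and ran the other way at 24 h, with 3.82 and 10.6 against 13.6, 20.4 and 10.7 (log2 difference -1.0, SE 0.58). That difference rests on 3.82 raised to the lowest level, and it was -0.44 without 24 h replicate 1 and -1.56 without 24 h replicate 2. In the array maker's naming an s marks probe sets that can match more than 1 transcript, so these signals may hold other transcripts.

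Across the 6 hours, 6 of 7 Bdnf probe sets were above naive at 0 h, 6 at 2 h, 5 at 3 h, 6 at 6 h, 3 at 12 h and 5 at 24 h. Their median log2 difference was 0.25 at 0 h, 0.46 at 2 h, 0.20 at 3 h, 0.31 at 6 h, -0.05 at 12 h and 0.34 at 24 h. The medians of all tested probe sets at the same hours lay between -0.07 and 0.06. At 2 h, 3 of the 13 member probe sets, all of Bdnf, had both arrays above every naive array, while 15.3% of all probe sets did. At 24 h this held for 4 Bdnf probe sets (D10938exon_s_at, S76758_i_at, S76799_at and X67108_at) and for Ntrk3, 5 of 13 against 8.86% of all. Pearson's r between the log2 values of Bdnf probe sets over the 16 arrays, given as a description, ran from -0.34 to 0.62 for the 21 pairs, so the 7 probe sets of this gene did not move as 1.

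**Figure D2:**
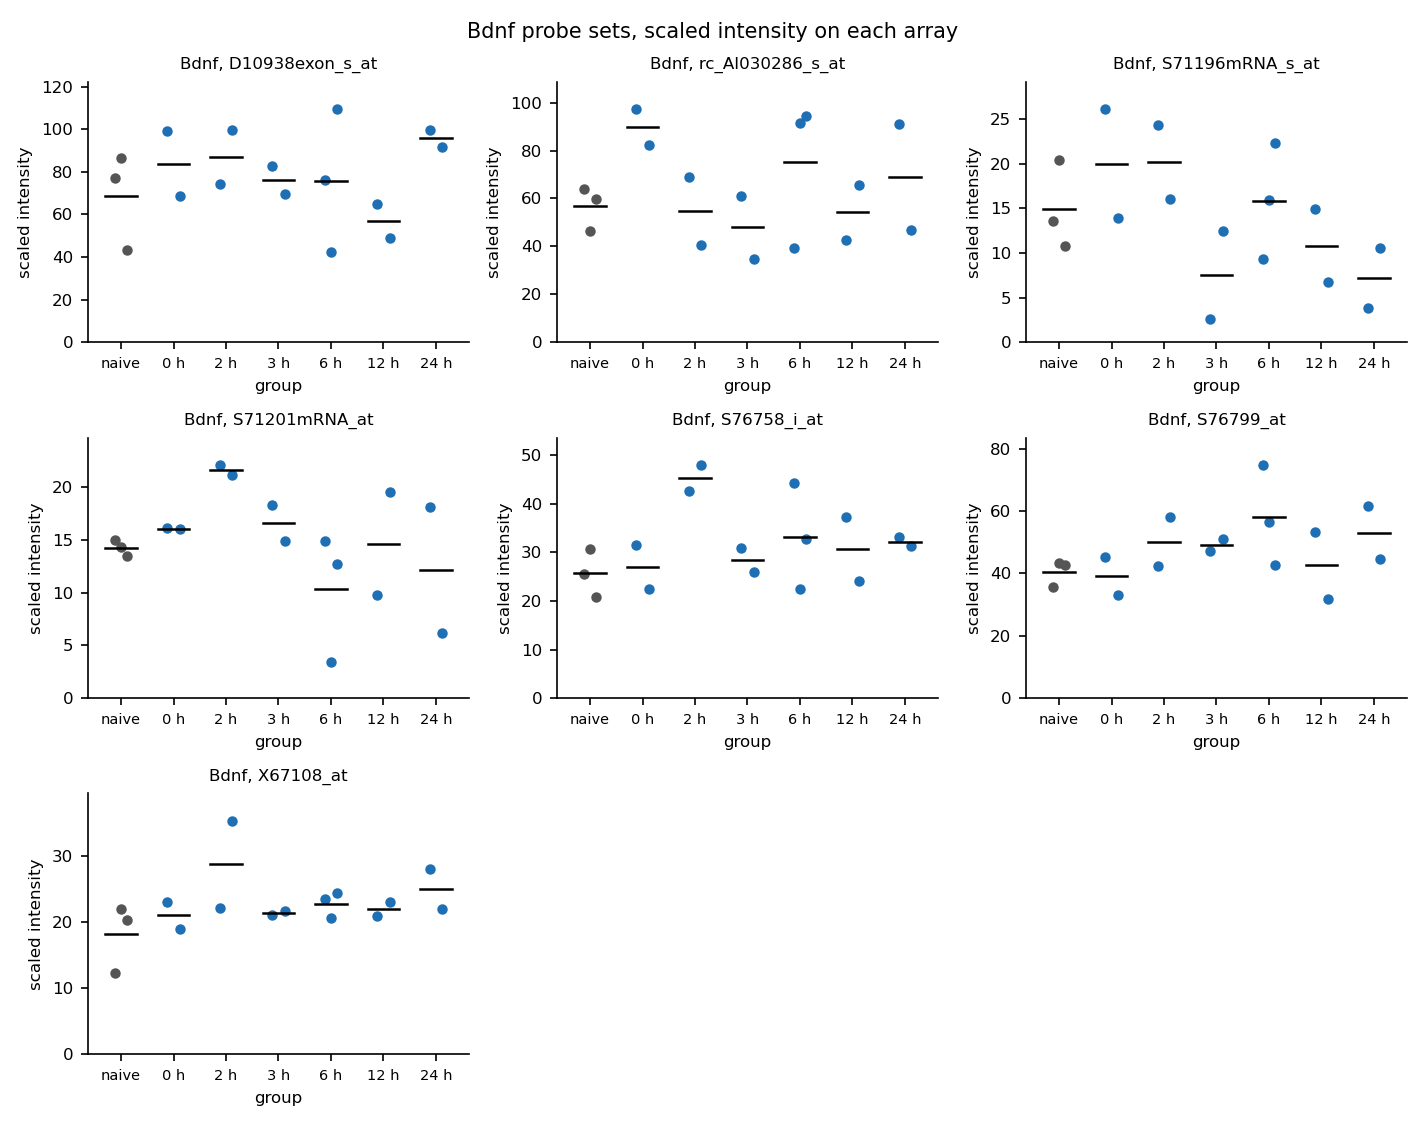
Scaled intensity of each Bdnf probe set on every array, by group, with a line at the group mean; groups run from naive to 24 h. The 2 h arrays of S76758_i_at lie above all naive arrays, while the 6 h arrays of D10938exon_s_at span 42.5 to 109.

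Ntf3 was read by 2 probe sets that did not run together (r = 0.11 over 16 arrays). M34643_at gave 177, 143 and 328 on the naive arrays, 306 and 217 at 0 h, 260.5 and 197 at 2 h, 183 and 165 at 3 h, 263, 334 and 227 at 6 h, 361 and 271 at 12 h, and 199 and 191 at 24 h. The naive arrays alone covered most of this range, since naive replicate 3 exceeded every trained array but 6 h replicate 2 and 12 h replicate 1. At 12 h the log2 difference was 0.63 (limma, adjusted p = 0.499), and the ranges overlapped. The trained mean was 0.22 higher (SE 0.21), and this became -0.034 without naive replicate 2 and 0.56 without naive replicate 3.

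Ntf3 E03082cds_s_at stayed within a narrow range, with 35.1, 32.6 and 37.1 on the naive arrays and 23.9 to 45.0 on the trained arrays. The 12 h arrays (36.8 and 45.0) had the highest mean here too, and the 3 h arrays (23.9 and 33.3) the lowest, as for M34643_at. All neighbours in the order of levels overlapped, and the trained mean differed from naive by -0.06 on the log2 scale (SE 0.21, 95% interval -0.50 to 0.39).

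The BDNF receptor gene Ntrk2 had its highest level at 12 h. M55291_at read 259.9, 269 and 190.3 on the naive arrays, 346 and 241 at 0 h, 265 and 273 at 2 h, 279.8 and 169 at 3 h, 327, 181 and 239.5 at 6 h, 346 and 412 at 12 h, and 302 and 238 at 24 h. Both 12 h arrays lay above every naive array, although 0 h replicate 1 reached the lower of them. The level averaged 379 ± 46.6 at 12 h (SD, n = 2) and 239.8 ± 43.1 in the naive group (n = 3). The log2 difference was 0.67 (SE 0.28, 95% interval 0.08 to 1.27), a 1.59-fold higher level. With an adjusted p = 0.458 (limma), it did not pass. The difference was 1.13 with the beta-actin 3'/5' ratio in the fit and 1.22 with log2 Ttr in it. Both covariates lay outside the naive range on the 12 h arrays, so these values are not read as larger effects.

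Of the 7 probe sets of Bdnf, the ligand of this receptor, 3 were above naive at 12 h. TrkB is also made by astrocytes, mainly in truncated form, and the probe sets here are not annotated to a receptor form. The summed level of 7 measured astrocyte markers was 7819 to 9961 at 12 h and 6827 to 8033 in the naive group, with 4 of the 7 above naive; their part in the Ntrk2 value was not tested. None of these markers was at the lowest level on any array. The other Ntrk2 probe set, M55293_at, exceeded the filter on 0 arrays, with intensities of 1.07 to 15.8 and 7 arrays at the lowest level, and was not tested.

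The neurotrophin-3 receptor gene Ntrk3 was highest at 6 h. S60953_s_at read 41.4, 53.6 and 31.8 at 6 h, against 27.2, 26.0 and 30.3 on the naive arrays. All 3 of the 6 h arrays lay above every naive array, which held for 4.34% of all probe sets. The log2 difference was 0.57 (SE 0.26, 95% interval 0.01 to 1.13), a 1.49-fold higher level, with an adjusted p = 0.52 (limma), so it did not pass. Without 6 h replicate 2 it was 0.38.

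At the other hours S60953_s_at read 42.2 and 29.6 at 0 h, 29.3 and 26.8 at 2 h, 25.8 and 31.7 at 3 h, 34.6 and 39.1 at 12 h, and 33.7 and 33.1 at 24 h. The 12 h and 24 h arrays thus also lay above every naive array, by 0.41 and 0.27 in mean log2, and the 2 h and 3 h arrays around the naive level. At 12 h, Ntrk2 and Ntrk3 were the 2 members of 13 with both arrays above the naive range, against 15.9% of all probe sets. When this control ratio of beta-actin entered the fit, the Ntrk3 difference was 0.36 at 6 h and -0.00021 at 12 h; that ratio was 1.92 to 2.30 at 6 h and 2.40 to 2.80 at 12 h, against 1.49 to 1.70 on the naive arrays. The second Ntrk3 probe set, S62933_i_at, lay between 2.18 and 11.6, exceeded the filter on 0 arrays and was not tested.

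**Figure D3:**
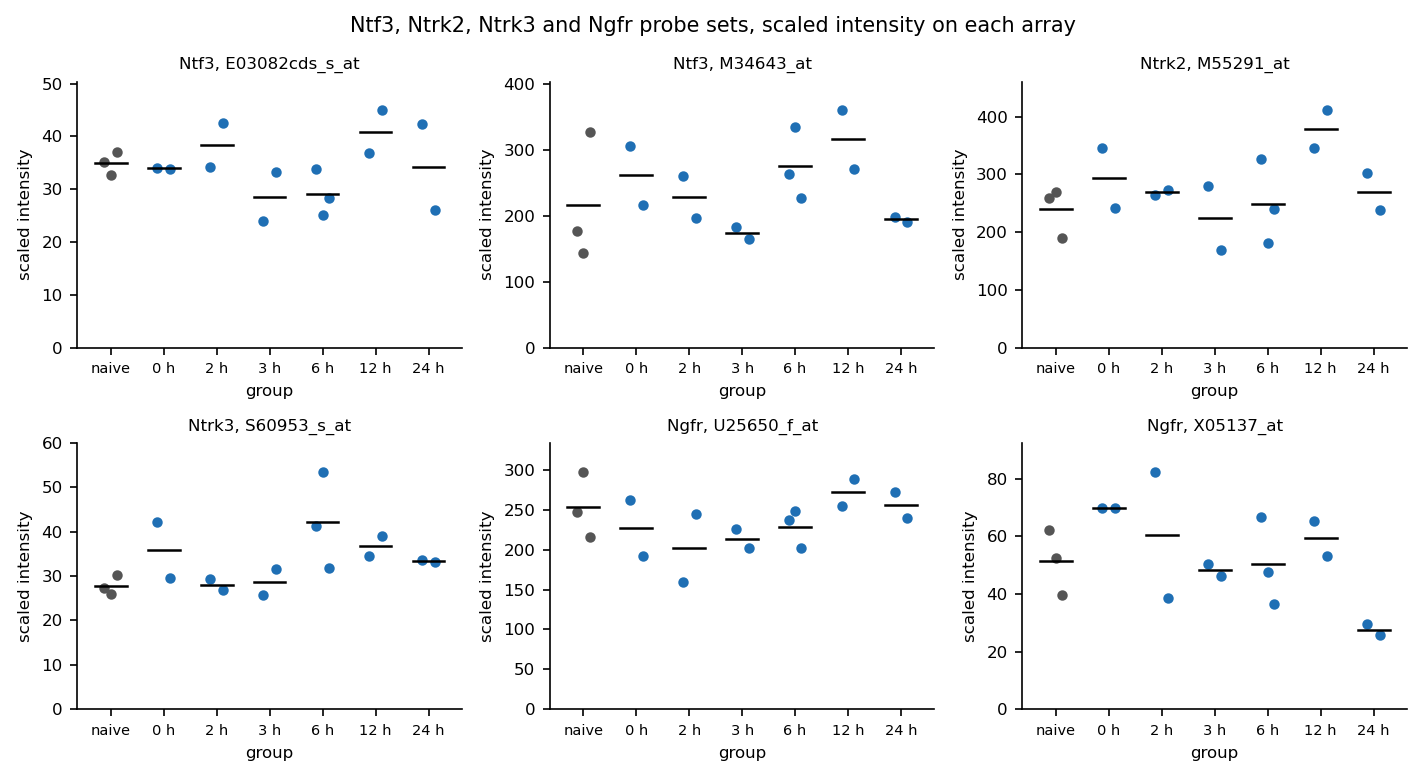
Scaled intensity of the tested Ntf3, Ntrk2, Ntrk3 and Ngfr probe sets on every array, by group from naive to 24 h, with a line at the group mean. Ntrk2 M55291_at has its highest mean at 12 h and Ntrk3 S60953_s_at at 6 h, while Ngfr X05137_at is lowest at 24 h.

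For Ngfr the 2 probe sets disagreed. X05137_at read 29.6 and 25.6 at 24 h, against 62.2, 52.6 and 39.6 on the naive arrays. Both 24 h arrays lay below all the other 14 arrays of the series, and on the lower side of the naive range with 11.8% of all probe sets. The log2 difference was -0.88 (SE 0.34, 95% interval -1.59 to -0.17), a 1.84-fold lower level, with an adjusted p = 1.00 (limma), so it did not pass. U25650_f_at read 273 and 241 at 24 h, against 247, 298 and 216 on the naive arrays, a log2 difference of 0.03. An f in such a name marks a probe set that can match several members of a gene family.

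At the other hours Ngfr X05137_at read 69.9 and 70.1 at 0 h, 82.6 and 38.4 at 2 h, 50.5 and 46.2 at 3 h, 66.8, 47.8 and 36.4 at 6 h, and 65.3 and 53.4 at 12 h. The 0 h arrays lay above the naive range (log2 difference 0.47) and the pair at 2 h spanned more than that range. Over the trained times alone the F test gave an adjusted p = 0.425 (limma). U25650_f_at varied least of all tested members, with a residual SD of 0.23 on the log2 scale against a median of 0.37 over all tested probe sets. Its trained arrays lay between 159.9 and 289, and the 2 probe sets had r = -0.24 over the 16 arrays.

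Markers of other tissue were lower on the same 24 h arrays. All 13 measured markers of choroid plexus, ependyma and meninges, of 15 listed, were below naive, with summed levels of 627 to 735 at 24 h and 2783 to 6703 in the naive group. All 6 measured oligodendrocyte markers, of 8 listed, were below naive as well, with sums of 2513 to 2763 at 24 h and 4009 to 5471 in the naive group. Aqp1 alone of these was at the lowest level, on 10 of the 16 arrays. Markers of endothelium and mural cells overlapped the naive range (4 of 7 above naive, sums of 240.1 to 266 at 24 h against 228 to 406). So did genes listed for cholinergic afferents or basal forebrain (3 measured of 5 listed, sums of 149 to 163 against 131 to 162). The latter are RNA levels and do not measure the fibres themselves. With log2 Ttr (6.13 and 6.15 at 24 h, 10.7 to 11.9 on the naive arrays) as a covariate, the Ngfr X05137_at difference was -1.36. The part of the other markers in it was not tested.

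**Figure D4:**
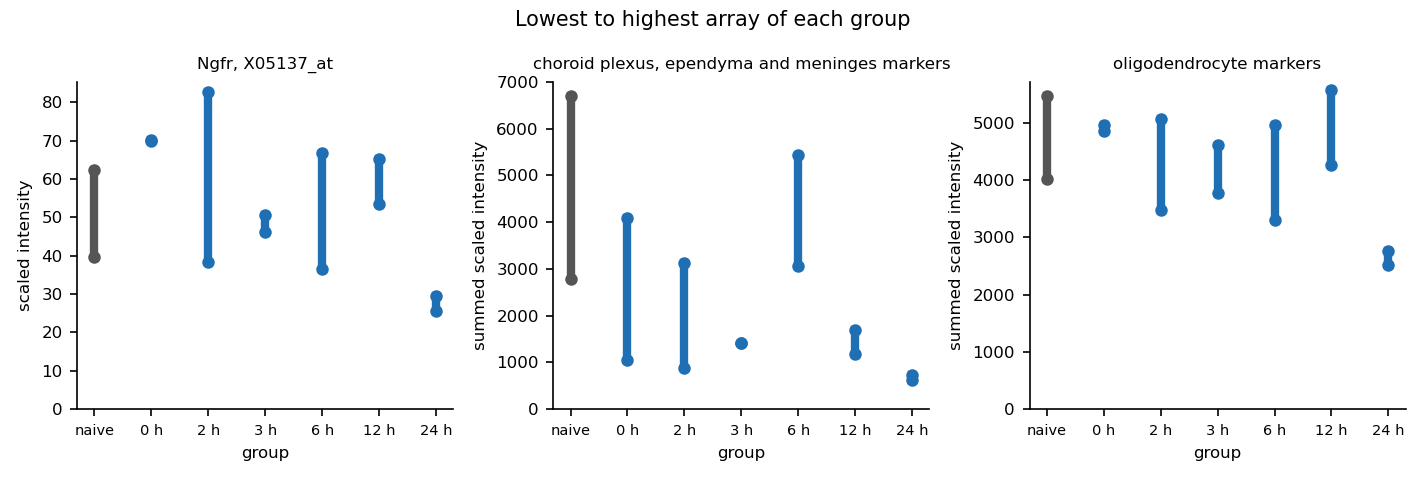
Lowest to highest array of each group, naive to 24 h, for Ngfr X05137_at (scaled intensity, left) and the summed scaled intensity of choroid plexus, ependyma and meninges markers (middle) and oligodendrocyte markers (right). At 24 h all 3 lie below the naive arrays. The choroid plexus sum also lies below them at 3 h and 12 h. The oligodendrocyte sum and Ngfr X05137_at lie wholly below them only at 24 h. Whether either sum bears on the Ngfr value was not tested.

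Hour by hour, members higher than naive numbered 10 of 13 at 0 h, 11 at 2 h, 6 at 3 h, 9 at 6 h, 9 at 12 h and 8 at 24 h. The share of all probe sets that was higher at those hours was 47.4%, 52.7%, 41.4%, 46.8%, 56.0% and 49.5%. Median log2 differences of the members were 0.29, 0.18, -0.07, 0.10, 0.22 and 0.18 from 0 h to 24 h, and those of all probe sets -0.02, 0.03, -0.07, -0.03, 0.06 and -0.0044. Groups lay wholly above naive for 3 members at 0 h (10% of all probe sets; Bdnf rc_AI030286_s_at and S71201mRNA_at, and Ngfr X05137_at) and for 1 at 3 h (7.3%; Bdnf S76799_at). Groups wholly below naive occurred for 2 members at 24 h, Bdnf S71196mRNA_s_at and Ngfr X05137_at, 2 of 13 against 11.8% of all probe sets. At the other hours 0 of 13 did, against 11.7% of all probe sets at 0 h and at 2 h, 12% at 3 h, 6.56% at 6 h and 11.8% at 12 h. Since 7 of the 13 probe sets read Bdnf and none passed the test, these counts describe the probe sets and not 13 separate genes.

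**Figure D5:**
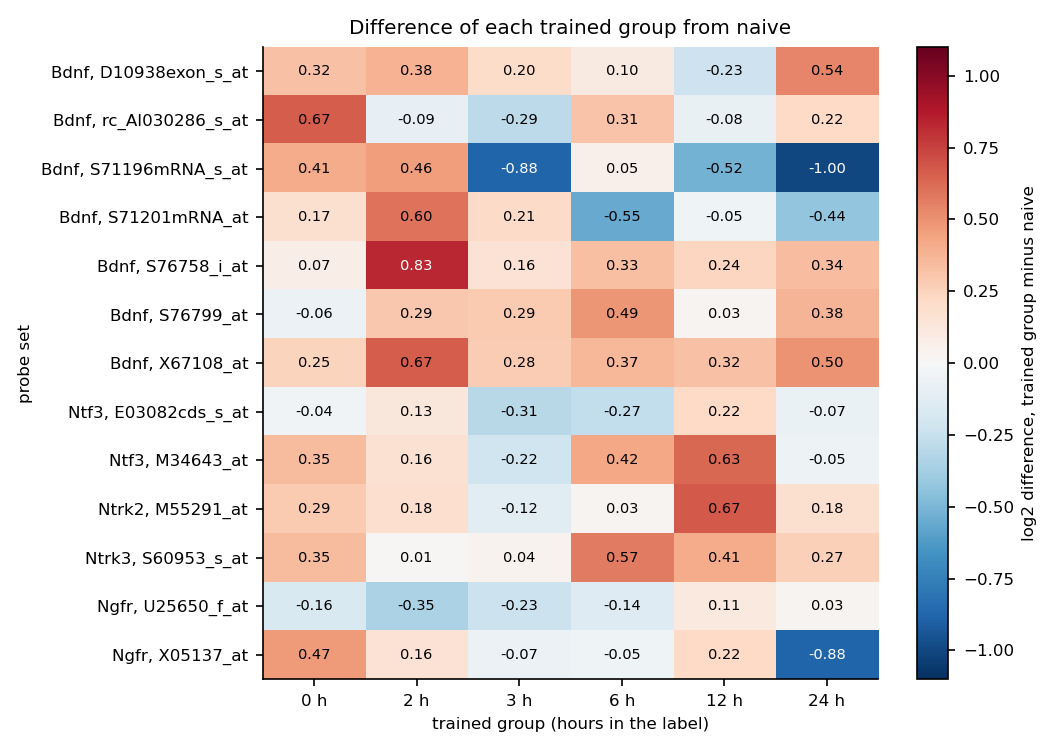
Log2 difference of each hour from naive for the 13 tested probe sets (rows) at 0 h to 24 h (columns); red is higher and blue lower than naive. The values run from -1.0 (Bdnf S71196mRNA_s_at at 24 h) to 0.83 (Bdnf S76758_i_at at 2 h), and the same hour is not highest for all 5 genes.

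Between genes, the probe set of highest mean was taken for each, and r of log2 intensity over the 16 arrays is given as a description. Ntf3 and the gene of its receptor, Ntrk3, had the highest r of the 10 pairs, 0.66 (Spearman's rho 0.70), and 0.67 without the 2 arrays farthest from the Ntf3 median. That r is for Ntf3 M34643_at alone, which had r = 0.11 with the other Ntf3 probe set, E03082cds_s_at. At 6 h, where Ntrk3 was highest, M34643_at differed from naive by 0.42 on the log2 scale and E03082cds_s_at by -0.27. Bdnf and its receptor gene Ntrk2 had r = 0.27, which was -0.26 without the 2 arrays farthest from the Bdnf median. Ntrk2 and Ngfr had 0.46, and Bdnf and Ntf3 had -0.54. The points share arrays, scaling and group means, so these values are not evidence of coupling.

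The transcripts whose profile over the 16 arrays was most like that of a member were found among at least 5118 tested probe sets with 1 symbol. For Bdnf D10938exon_s_at they were Sart1 (r = 0.858), Rpl24 (0.842, a ribosomal protein) and Ndufa5 (0.831, a complex I subunit). Ntf3 M34643_at was most like Olfm1 (0.841), Eif2b3 (0.833) and Tcp11l2 (0.825). The genes nearest to Ntrk2 M55291_at were Prp2l1 (0.855), Plk1 (0.846) and Sh2b2 (0.802), the last an adaptor of receptor tyrosine kinases. Those nearest to Ntrk3 S60953_s_at were Cdc37 (0.847), Kcnj10 (0.821, an astrocyte potassium channel) and Tsc22d1 (0.820), and to Ngfr U25650_f_at Enpp1 (0.772), Zmat3 (0.768) and Rgn (0.752). The 99th percentile of r over all compared probe sets lay between 0.568 for Ngfr and 0.716 for Ntf3. The named values were picked as the highest of many, each for 1 probe set of its gene, and are only a description. Bdnf D10938exon_s_at itself had r of 0.0081 to 0.62 with the other Bdnf probe sets.

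Around the members, 5 lists of pathway genes held 123 genes, of which 77 had a probe set and 70 were tested, with 125 probe sets. None of the 125 passed the test in any comparison, in either direction, under limma. Without 6 h replicate 3, Homer1 passed in both F tests (adjusted p = 0.0347 and 0.0391), where 8 and 7 of all probe sets did, and Mapk9 and Rap1b at 6 h, where 29 did. Without 12 h replicate 2, Junb passed at 12 h (adjusted p = 0.00986) among 23 of all probe sets. For trained against naive, 53 were higher and 72 lower, with a median log2 difference of -0.04 against -0.01 for all probe sets, and 10 of the 125 had an unadjusted p under 0.05, against 5.35% of all probe sets. Of 9 other ligands and receptors only Sort1, which encodes sortilin, was tested: AF023621_at read 6.77 to 32.2 on the trained arrays against 32.8, 14.9 and 18.4 on the naive arrays (log2 difference -0.82, SE 0.35), and its other probe set differed by -0.02. Both probe sets of Ntf4, a further TrkB ligand, failed the filter.

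Among genes of proneurotrophin processing, 6 of 14 probe sets were higher in the trained mean (median -0.09). Furin, a protease that cleaves proneurotrophins in the Golgi, read 27.8 and 17.3 at 2 h on X55660_at against 58.4, 70.3 and 93.1 on the naive arrays. The 2 h and naive groups did not overlap, which on the lower side held for 11.7% of all probe sets. The log2 difference was -1.73 (SE 0.34, limma, adjusted p = 0.236), while the other Furin probe set differed by 0.29. Mmp2, a matrix metalloproteinase, differed by -0.92 and 0.47 in the trained mean on its 2 probe sets, and Pcsk2, a prohormone convertase, by -0.55 and -0.03.

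For Trk adaptors and effectors, 25 of 50 probe sets were higher in the trained mean (median -0.0055). The gene of the IP3 receptor, Itpr1, differed by -1.49 (SE 0.48) on U38812_s_at and 0.03 on its other probe set. The size of the former depends on the lowest level, to which 3 h replicate 2 (3.87), 6 h replicate 2 (2.07) and 12 h replicate 2 (1.93) were raised. The gene of the small GTPase Rap1b differed by -0.49 and -0.04. Map2k1, which encodes the ERK kinase MEK1, differed by -0.93 at 12 h on D14591_s_at (limma, adjusted p = 0.287 over the 7 groups) but by -0.18 and 0.55 on its other probe sets, and Gsk3b X53428cds_s_at had an adjusted p = 0.315 over the 7 groups. Among effectors of p75NTR, 7 of 21 were higher (median -0.13): Jun X17163cds_s_at differed by -1.74 (SE 0.54) but the other 3 Jun probe sets by 0.14, 0.17 and -0.46, Mapk9 (JNK2) differed by -0.89 on 1 probe set and by -0.63 and -0.28 on the others, and Rac1 had an adjusted p = 0.51 over the 7 groups (limma).

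Of 38 probe sets of neurotrophin-responsive genes, 15 were higher in the trained mean (median -0.06). Nptx2, a secreted pentraxin of excitatory synapses, read 132 to 243 on the trained arrays of S82649_s_at against 134, 102 and 167 on the naive arrays. All 13 trained arrays lay above the mean log2 level of the naive arrays, the lowest of them only just, and the ranges overlapped (log2 difference 0.43, SE 0.16, and 0.32 on the other probe set). Homer1, whose short form is induced by activity, read 28.2 and 29.5 at 12 h on AF093268_s_at against 67.7, 67.8 and 76.0 on the naive arrays. This probe set also lay below the naive range at 3 h (50.8 and 55.0) and 24 h (41.3 and 38.3). It lay above that range at 0 h (93.1 and 82.5) and 2 h (76.2 and 89.0), and overlapped it at 6 h (39.6, 30.0 and 72.6). The 12 h and naive groups did not overlap, which on the lower side held for 11.8% of all probe sets. The log2 difference at 12 h was -1.29 (SE 0.30, limma, adjusted p = 0.199), while the 5 other Homer1 probe sets differed by -0.41 to 0.0058. Dusp6, an ERK phosphatase, read 128 and 162 at 2 h on U42627_at, above the naive 68.4, 80.6 and 85.4, and 55.0 and 47.4 at 24 h, below them. Its probe set X94185cds_s_at read 79.7 and 74.7 at 2 h, also above its naive 51.8, 66.7 and 33.3. At 24 h X94185cds_s_at read 42.7 and 13.6, which overlapped the naive range. Of all probe sets 15.3% lay wholly above naive at 2 h, and 11.8% wholly below it at 24 h. Snap25 differed by -0.68 in the trained mean on U56261_s_at, and by -0.17, -0.24 and -0.44 on its other probe sets.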

How the data were processed

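The deposited table held 1 linear intensity per probe set and array; per the labels the arrays were Affymetrix RGU34A, and for the authors' software, background correction and scaling the sources used here give no statement. The 59 control probe sets were left out. Gene symbols came from the platform annotation. For 6985 probe sets the current symbol was found through the gene identifier and used, whether or not it differed. Of 8740 probe sets, 7006 had 1 symbol, 308 several and 1426 were not listed. Arrays were scaled to a 2% trimmed mean of 101, the mean of their own. All 7 groups entered 1 linear model in limma (version 3.58.1, under R 4.3.3; lmFit, then eBayes with a variance trend; 9 residual degrees of freedom) and adjusted by Benjamini-Hochberg at 0.05; the trained mean weights the 6 hours equally. The procedure was tested on simulated data with changes at 6 h only, each larger than any member difference given here. That test therefore does not show whether differences of the members' size would be found. The members, gene lists and tests were chosen with earlier results of these data known. Named pathway genes are the 2 per list with the smallest unadjusted p for trained against naive and the 2 with the smallest over the 7 groups. No depth in reads applies, and the number of arrays limits the precision. Alternatives changed the scaling, lowest level, filter, variance model, samples fitted, covariates, replicate block and each array.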

Additional observations from a re-analysis of the deposited data

How the results depend on the processing

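The count of member probe sets called was 0 in every comparison under each of the 25 or 26 alternatives tried, at adjusted limma p-values no lower than 0.211; for trained against naive, a fit of only the groups compared is the fit already given. Counts of pathway probe sets, 0 throughout otherwise, ranged when single arrays were left out from 0 to 1 in both F tests (Homer1 without 6 h replicate 3, adjusted p = 0.0347 and 0.0391; 8 and 7 of all probe sets), from 0 to 2 at 6 h (Mapk9 and Rap1b, both without 6 h replicate 3, lowest adjusted p = 0.0246; 29 of all) and from 0 to 1 at 12 h (Junb without 12 h replicate 2, adjusted p = 0.00986; 23 of all). The cause was not tested. The labels do not say that a replicate number marks shared animals or days, so the numbers were not taken as pairs. The deviations of same-numbered arrays from their group means correlated at -0.20 to 0.19 over 43 pairs (median 0.02). Over 66 pairs of different number the median was -0.02, and 12 of 16 arrays correlated best with an array of their own number. In a group of 2 arrays the deviations are exact opposites, so neither comparison can decide whether the numbers mark pairs. The replicate block called 0 members. For trained against naive, Bdnf S71201mRNA_at, -0.01 as reported, turned to 0.054 with the replicate block, 0.023 with median centring, 0.19 with the actin ratio and 0.34 with Ttr. Ttr as a covariate also gave -0.046 for Bdnf rc_AI030286_s_at, 0.061 for Ntf3 E03082cds_s_at and 0.26 for Ngfr U25650_f_at. Ngfr X05137_at became 0.038 with quantile normalization, 0.011 with median centring and 0.40 with the actin ratio, and Ntrk3 at 12 h -0.00021 with the actin ratio. Leaving out single arrays also turned the trained difference of Bdnf D10938exon_s_at (-0.089 to 0.41), rc_AI030286_s_at (-0.011 to 0.22), S71196mRNA_s_at (-0.46 to 0.0039) and S71201mRNA_at (-0.14 to 0.12), of Ntf3 E03082cds_s_at (-0.12 to 0.00050) and M34643_at (-0.034 to 0.56), and of Ngfr X05137_at (-0.20 to 0.12). The 4 hour differences with an unadjusted limma p under 0.05 kept their direction under all alternatives tried on them. The range was 0.69 to 1.26 for Bdnf S76758_i_at at 2 h and 0.36 to 0.76 for Ntrk3 at 6 h. For Ntrk2 at 12 h it was 0.51 to 1.22 and for Ngfr X05137_at at 24 h -1.36 to -0.71. The other hour differences of groups wholly above or below naive also kept theirs, except Ntrk3 at 12 h. Bdnf S71196mRNA_s_at at 24 h, for example, stayed at -1.56 to -0.44. All were picked from these same arrays, so a kept direction adds no support. Median centring moved the median of all probe sets at 3 h to 0.11, against -0.07.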
